A study of Drosophila melanogaster with 10 samples.

Results

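Ret, Shal, Snoo, Cda5 and neo are 5 Drosophila genes, of 13984 gene names in the RNA tables, that held more RNA in all 5 knock-downs of a study of transposon silencing. They were chosen because their deposited values were higher in every knock-down than in the control, so their changes against the control are given as a description. Each of the 5 names had 1 entry in the tables. Ret encodes a receptor tyrosine kinase, the fly relative of the vertebrate receptor for glial cell line-derived ligands, and Shal the voltage-gated potassium channel of the Kv4 type. Snoo encodes a Ski/Sno family protein that binds Smad transcription factors, Cda5 a protein with a chitin deacetylase domain, and neo (neyo) a zona pellucida (ZP) domain protein of the apical extracellular matrix. Ret and Snoo thus act in signalling, while the other 3 encode an ion channel and proteins linked to extracellular matrix.

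All libraries came from ovarian somatic cells (OSC), a cultured Drosophila line of somatic ovary cells grown at 26 °C, collected 2 days after 1 transfection with siRNA. Poly(A) RNA was sequenced from 6 cultures, 1 library each: a control that received siRNA against EGFP, a gene that flies do not carry, and cultures that received siRNA against Piwi, Armi, Mael, CG3893 or HP1a. The control cells were thus transfected too. Another 4 libraries of RNA polymerase II chromatin immunoprecipitation list transposable element (TE) entries and no gene, so polymerase on these 5 genes was not analysed here. With 1 library per group no difference has a replicate check and no p-value is given.

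The factors depleted here act in 1 silencing pathway. In somatic cells of the ovary, Piwi loaded with small piRNAs enters the nucleus, recognises nascent TE transcripts and brings about methylation of histone H3 and reduced transcription. Armi is an RNA helicase needed to make the piRNAs, Mael and CG3893 (also called GTSF1 or Asterix) act with Piwi in the nucleus, and HP1a binds the methylated histone in heterochromatin generally. Silencing marks at a TE insertion are known to reach into flanking sequence in these cells. Insertions beside the 5 genes were not examined here.

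The targeted RNA was at 30.1% of control for piwi in its own knock-down, 35.9% for armi, 10.3% for mael, 48.4% for CG3893 and 30.2% for the HP1a gene. The depletions were unequal, so differences between knock-downs are differences between libraries and not a ranking of the factors. Library totals, worked out from the values as described under processing, ran from 18584526 reads in HP1a to 36729626 in Piwi. The follicle-cell and somatic markers tj and zfh1 were at 151 to 206 RPKM and 105 to 130 RPKM over the 6 libraries, and slbo at no more than 0.51 RPKM. Of the other markers on that list, fs(1)Yb was at 47.2 to 74.2 RPKM, br at 54.3 RPKM in the control and 39.5 to 45.2 in the knock-downs, and Fas3 at 41.5 RPKM in the control, 42.3 to 62.7 in the piRNA-factor knock-downs and 108 in HP1a, past 2-fold there at 1.36 on the log2 scale. Germline markers summed to between 3.87 and 4.20 RPKM in the control and the piRNA-factor knock-downs and to 10.8 RPKM in HP1a, with vas at 1.56 RPKM in the control and 6.38 in HP1a. Hemocyte and fat body markers summed to 18.3 RPKM in the control and to 29.7 in HP1a, most of it srp and Pxn. The higher sum came from srp, at 8.83 RPKM in the control and 21.6 in HP1a, past 2-fold at 1.20. Pxn was lower in HP1a, at 7.83 against 9.36 RPKM, and Hml was at no more than 0.027 RPKM. The part of these in the results was not tested.

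Levels are in RPKM, reads scaled to transcript length and library total. Changes are log2((knock-down + 1)/(control + 1)) on RPKM, which understates the change of weakly expressed genes. Folds are plain ratios of RPKM. A change of 2-fold on the log2 scale serves as a fixed size limit in place of a test, and the 7690 genes averaging 1 RPKM or more over the 6 libraries were counted against it. All 5 genes passed that filter, Shal and neo only because of the knock-downs, since both were under 1 RPKM in the control. Members were chosen as higher in every knock-down, so that 5 of 5 were past the limit in each is a description. Among the 7690 genes the limit was passed upward by 3.85% in the HP1a library, 2.42% in Mael, 1.56% in Piwi, 1.01% in CG3893 and 0.975% in Armi, and by 29 genes, 0.377%, in all 5 knock-downs. All 5 comparisons use the same control library, so a low reading there would raise every change of a gene at once. In cultures such as these, more cells expressing a gene and more RNA per cell cannot be told apart.

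**Figure D1:**
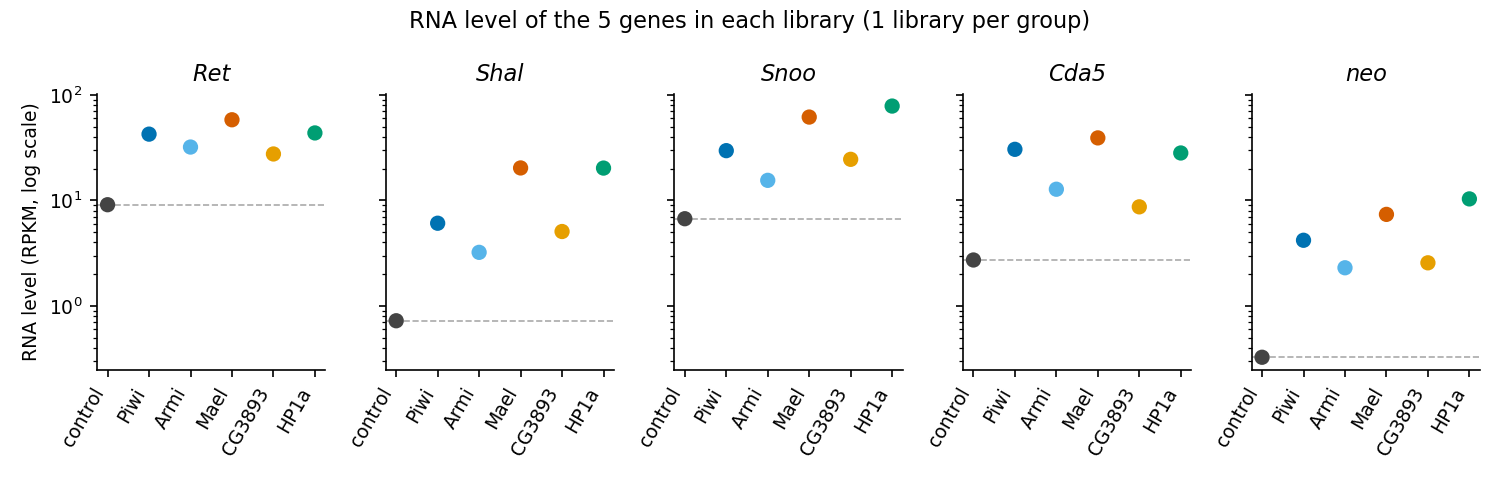
RNA level in RPKM (log scale) of Ret, Shal, Snoo, Cda5 and neo in each of the 6 libraries, 1 point per library, with a dashed line at the control level. The control is the lowest point in every panel, and the Armi or the CG3893 library is the lowest knock-down.

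Ret, the receptor tyrosine kinase gene (chromosome 2L, 21182394 to 21198745, build dm3), was the most strongly expressed of the 5 in the control. Its level was 9.12 RPKM in the control cells, while Mael had 58.3, HP1a 43.7, Piwi 42.6, Armi 32.1 and CG3893 27.6. Piwi and HP1a were nearly level, Mael stood above them and CG3893 was the lowest knock-down. The plain ratio to control ran from 3.03-fold in CG3893 to 6.40-fold in Mael. The 5 knock-downs differed from each other by at most 2.11-fold, the narrowest range of the 5 genes. The log2 change was between 1.50 and 2.55 and placed Ret between rank 27, in Armi, and rank 76, in HP1a, among the 7690 genes.

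Shal, the Kv4 channel gene (3L, 19561538 to 19577680), was barely expressed in the control. Its level was 0.72 RPKM without knock-down, against 20.4 in Mael, 20.3 in HP1a, 6.09 in Piwi, 5.08 in CG3893 and 3.22 in Armi. Mael and HP1a were level with each other and far above the other 3 knock-downs. The plain ratio was 28.2-fold in Mael and 28.1-fold in HP1a, and 8.42-fold, 7.02-fold and 4.46-fold in Piwi, CG3893 and Armi. The highest knock-down exceeded the lowest by 6.32-fold, the widest range of the 5 genes. On the log2 scale Shal ranked 16 of 7690 in Mael and 14 in HP1a, with changes of 3.63 in both.

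Snoo, the Ski/Sno gene (2L, 7892323 to 7984158), spans 91.8 kb and lists 3 transcription start sites. Its level was 6.72 RPKM in the control cells, while HP1a had 78.7, Mael 61.9, Piwi 29.7, CG3893 24.6 and Armi 15.5. HP1a was the highest library and Armi the lowest knock-down. The plain ratio ran from 2.31-fold in Armi to 9.21-fold in Mael and 11.7-fold in HP1a. Its change of 1.10 in Armi is the nearest of the 25 changes of these genes to the 2-fold limit of 1 on the log2 scale.

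Cda5, the chitin deacetylase gene (2L, 25402 to 59242), lies near the left end of its chromosome arm. Its level was 2.73 RPKM without knock-down, against 39.3 in Mael, 30.6 in Piwi, 28.2 in HP1a, 12.8 in Armi and 8.71 in CG3893. Cda5 was the only one of the 5 genes with more RNA in Piwi than in HP1a. It ranked 9 of 7690 genes in Piwi, with a plain ratio of 11.2-fold and a log2 change of 3.08. In CG3893 the ratio was 3.19-fold and the rank 52.

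neo, the ZP domain gene (3R, 25644834 to 25651522), was the weakest in the control and in every knock-down. Its level was 0.33 RPKM in the control cells, while HP1a had 10.4, Mael 7.38, Piwi 4.19, CG3893 2.56 and Armi 2.30. Its values are whole multiples of the value of 1 read, which gives 32 reads without knock-down, against 553 in HP1a, 539 in Mael, 444 in Piwi, 233 in CG3893 and 148 in Armi, taken as the smallest whole numbers in that ratio. Among the knock-downs, Armi and CG3893 were close to each other. The plain ratio was 31.8-fold in HP1a, with a 95% exact binomial (Clopper-Pearson) interval of 22.3 to 47.0, and 22.7-fold in Mael (15.9 to 33.5). In Piwi it was 12.9-fold (8.99 to 19.1), in CG3893 7.87-fold (5.42 to 11.8) and in Armi 7.06-fold (4.79 to 10.7). These intervals cover counting error between libraries and no spread between cultures. Because neo was chosen as higher in every knock-down, they are a description and give no support for its changes.

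Whole reads could not be worked out for the other 4 genes. At the depth of the control, Shal rested on about 24.5 reads per kilobase of transcript, Cda5 on 92.3, Snoo on 227 and Ret on 309, against 11.0 for neo. With a pseudocount of 5 RPKM in place of 1, Shal and neo were under the limit in Piwi, Armi and CG3893, Snoo in Armi and Cda5 in CG3893, while Ret was past it in all 5 knock-downs. Just past the 2-fold limit in all 5 knock-downs were CG13038, with a lowest change of 1.03, and CG9837, with 1.04. Just short of it were Hsp67Bb and CG14629, whose lowest changes were a little under 1.00, and Fas2 with 0.98. The limit is not the rule by which the 5 genes were chosen. These other genes too were higher in every knock-down than in the control.

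Apart from RNA level, the 5 genes are long. Their loci span 16.4 kb for Ret, 16.1 kb for Shal, 91.8 kb for Snoo, 33.8 kb for Cda5 and 6.7 kb for neo, where the median of the 7690 genes is 2.52 kb. Snoo is longer than or as long as 99.3% of them, Cda5 96.1%, Ret 91.4%, Shal 91.3% and neo 79.3%. All 5 lie below the median control level of 24.1 RPKM, Ret at percentile 22.6 and neo at percentile 0.936. The choice of members favours low control values, and Shal and neo passed the filter through the knock-downs, so this is a description. The 5 genes sit on 3 chromosome arms, with Cda5, Snoo and Ret on 2L and none within 50 kb of another.

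The next comparison sets the knock-downs against each other, which leaves the control library out. The rule set no order among the knock-downs but used these same values, and Shal and neo passed the filter through them, so the differences are a description and nothing is read from the backgrounds printed beside them. Mael and HP1a were the highest libraries for Ret, Shal, Snoo and neo. For Cda5 the order was Mael, Piwi and HP1a. Armi was the lowest knock-down for Shal, Snoo and neo, and CG3893 for Ret and Cda5.

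**Figure D2:**
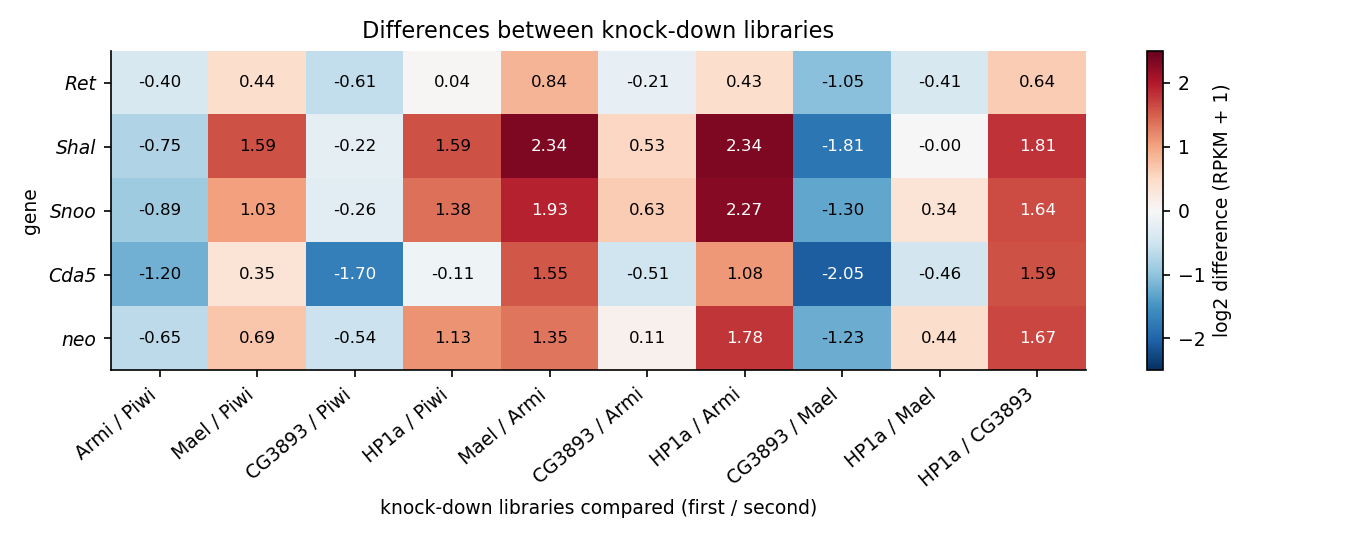
Differences in log2(RPKM + 1) between each pair of knock-down libraries (columns, first library minus second) for the 5 genes (rows), red where the first library is higher and blue where it is lower. All 5 genes are past 2-fold lower in CG3893 than in Mael, while every HP1a to Mael difference is under 2-fold.

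All 5 genes were past 2-fold lower in CG3893 than in Mael, from -1.05 for Ret to -2.05 for Cda5 on the log2 scale, where 1.3% of all genes tested were. With a pseudocount of 5 RPKM it was 3 of the 5, with Ret at -0.96 and neo at -0.71, and the background was not computed. In plain values Cda5 stood at 39.3 RPKM in Mael and 8.71 in CG3893, and Ret at 58.3 and 27.6. Against Armi, Mael was past 2-fold higher for 4 of the 5 genes (background 1.56%), with Ret at 0.84. Against Piwi, Mael was higher for all 5 but past 2-fold for 2 of them, Shal at 1.59 and Snoo at 1.03 (background 1.08%).

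For each of the 5 genes HP1a and Mael differed by less than 2-fold, as they did for most tested genes. The differences ran from -0.46 for Cda5 to 0.44 for neo. Of all tested genes, 1.77% were past 2-fold higher in HP1a and 1.42% lower. Against Piwi, HP1a was past 2-fold higher for 3 of the 5 genes (background 2.56%): Shal at 1.59, Snoo at 1.38 and neo at 1.13. Ret, at 0.04, and Cda5, at -0.11, were nearly level in HP1a and Piwi. HP1a was past 2-fold higher than Armi for 4 genes (background 2.67%) and than CG3893 for 4 genes (background 2.37%), with Ret the exception at 0.43 and 0.64.

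Among Piwi, Armi and CG3893 few differences were past the limit. Armi was below Piwi for all 5 genes and past 2-fold for Cda5 alone, at -1.20 (background 0.533%). CG3893 was below Piwi for all 5 and past 2-fold for Cda5 alone, at -1.70 (background 0.442%). Armi and CG3893 differed by less than 2-fold for each gene (background of CG3893 against Armi 0.585% higher and 0.39% lower): Shal, Snoo and neo were higher in CG3893, Ret and Cda5 in Armi. Whether these differences exceed the spread between cultures could not be measured.

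The neighbouring genes show whether RNA was higher along the whole region. Within 50 kb of the 5 loci lie 102 other genes, of which 68 had a mean of at least 1 RPKM. Past 2-fold higher were 0 of the 68 in Piwi and in CG3893, 1 in Armi, and 2 each in Mael and HP1a, shares of 0%, 1.47% and 2.94% beside the backgrounds given above. In any of the 5 knock-downs together it was 3 of 68, or 4.41%, against 4.76% of all tested genes. Past 2-fold lower were 0 in each of the piRNA-factor knock-downs (backgrounds 0.468% in Piwi, 0.429% in Armi, 0.806% in Mael and 0.377% in CG3893) and 2 in HP1a (background 1.9%). The median log2 change of the 68 neighbours lay between -0.05, in HP1a, and -0.02, in CG3893, and that of all tested genes between -0.08 and -0.02 in the same libraries. In all 5 knock-downs, 56 of the 68 stayed within 0.5 on the log2 scale, or 82.4%, against 80.1% of all tested genes. The neighbours as a group were thus near the background.

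**Figure D3:**
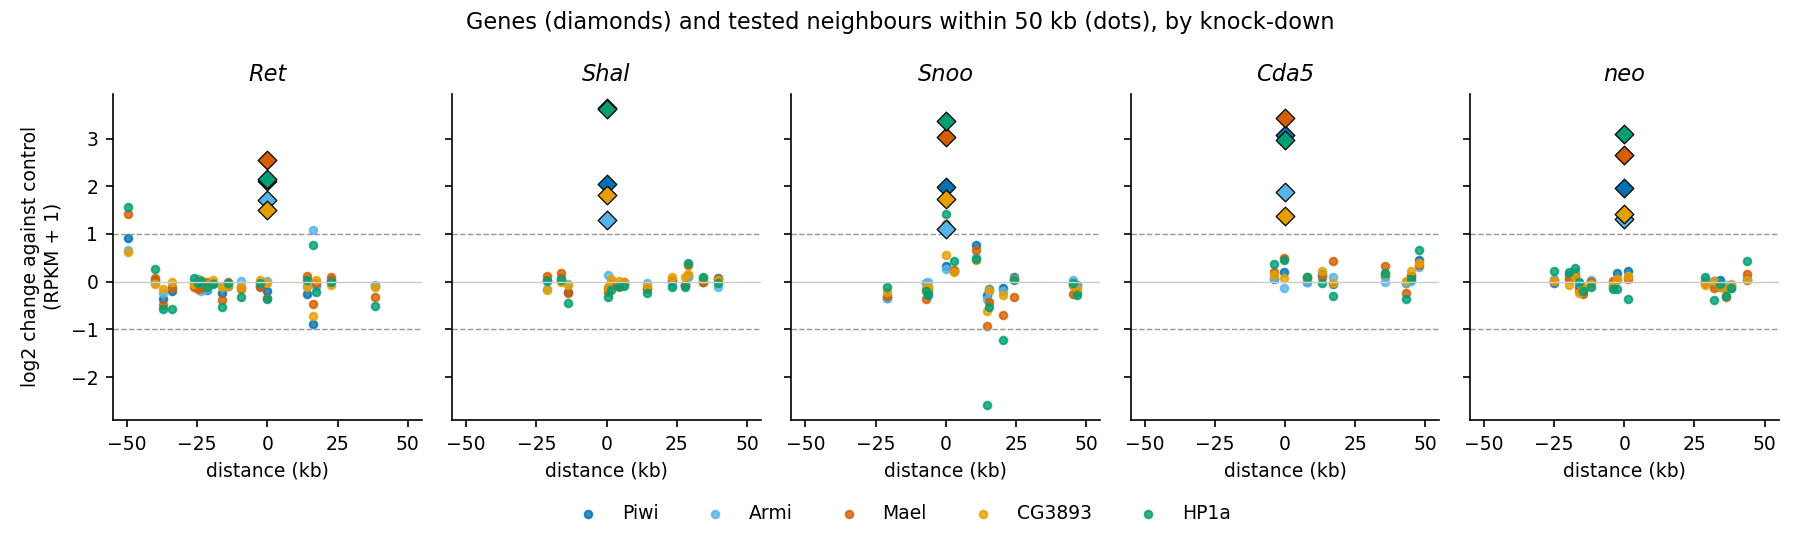
Log2 change against control of each of the 5 genes (diamonds at 0) and of the 68 tested neighbours (dots) by distance in kilobases from the edge of the gene's locus, coloured by knock-down, with dashed lines at the 2-fold limits. The diamonds lie between 1.10 and 3.63, and 65 of the 68 neighbours stay under the upper line in all 5 knock-downs.

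Around Shal, Cda5 and neo no tested neighbour was past 2-fold in any knock-down. CG9231, 0.512 kb to the right of Shal, held 57.9 RPKM in the control and 45.9 to 63.6 in the knock-downs, and CG9300, 13.7 kb to the left, at 31.2 and at 22.8 in HP1a, its lowest library. Ir21a, an ionotropic receptor gene 0.25 kb from Cda5, was at 2.16 RPKM in the control, 1.89 in Armi and at most 3.42, in Mael. On the other side of Cda5, dbr at 7.80 kb went from 26.2 RPKM to between 26.2 and 28.2. The nearest tested genes on either side of neo, CG31033 at 1.48 kb and Vps16B at 2.66 kb, held 58.3 and 7.91 RPKM in the control and 45.0 to 68.3 and 6.97 to 9.07 in the knock-downs. CG7829, closer to neo at 1.35 kb, was too weak to be tested: it was listed at 0 in the control, Piwi and Armi, at 0.079 RPKM in CG3893, 0.39 in Mael and 0.53 in HP1a, so it was highest in the same libraries as neo.

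At Ret, the replication gene Mcm10 overlaps the locus by 419 bases. It stood at 27.8 RPKM in the control cells, while Armi had 28.1, CG3893 27.4, Piwi 23.9, Mael 21.8 and HP1a 21.2, so none of the knock-downs held clearly more. The next tested genes were bur, 2.70 kb to the left, at 62.5 to 68.5 RPKM over the 6 libraries, and CG8678, 13.9 kb to the right, at 5.93 to 8.08 RPKM. CG31624, 0.441 kb to the right and too weak to be tested, was at 1.39 RPKM in the control and lower in each knock-down, at 0.40 to 0.86 RPKM. The exchanger gene Nhe2, near the edge of the window at 49.7 kb, was the exception. Its level was 7.89 RPKM without knock-down, against 25.3 in HP1a, 22.9 in Mael, 15.7 in Piwi, 13.1 in Armi and 12.7 in CG3893, past 2-fold on the log2 scale in Mael and HP1a, at 1.43 and 1.56. The short RNA entry snRNA:U4:39B was past the limit in Armi, at 13.4 against 5.85 RPKM, at 10.7 RPKM in HP1a, and at 2.69 to 3.93 RPKM in Piwi, CG3893 and Mael. Such short RNAs are poorly captured by poly(A) selection.

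At Snoo, CG7231 overlaps the right end of the locus by 239 bases and was among the 3 neighbours past the limit. Its level was 7.65 RPKM in the control cells, while HP1a had 22.1, Mael 18.9, CG3893 11.8, Piwi 9.84 and Armi 9.44. It was past 2-fold in Mael, at 1.20, and in HP1a, at 1.42, the libraries in which Snoo was highest. The library kit named in the labels does not mark strand in its standard form and the counting is not described, so reads in the shared stretch cannot be assigned to either gene. The next gene, pes, 2.95 kb away, went from 36.0 RPKM to between 41.8 and 48.8. CG7227, 10.7 kb to the right, was at 2.25 RPKM in the control and at 3.47 to 4.52 in the knock-downs. CG7231, pes and CG7227 were thus each higher in every knock-down than in the control, with pes and CG7227 under the limit throughout. On the left side CG34132, 6.31 kb away, was at 192 RPKM in the control and at 158 to 190 in the knock-downs.

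Also beside Snoo, CG7224, at 14.8 kb, and the serpin gene Spn28D, at 20.4 kb, were lower where Snoo was highest. CG7224 stood at 359 RPKM without knock-down, against 294 in Piwi, 280 in Armi, 234 in CG3893, 188 in Mael and 58.8 in HP1a. Spn28D stood at 3.67 RPKM in the control, 1.90 in Mael and 0.99 in HP1a. Both were past 2-fold lower in HP1a, at -2.59 and -1.23 on the log2 scale, and under the limit in the other 4 knock-downs.

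Each gene was then placed among the other genes of its pathway or family. The genes placed were themselves chosen by their deposited RNA values, which were higher in every knock-down than in the control. The lists were chosen by known function, but with earlier results of these data known, so the choice was not blind to how listed genes moved. Counts are of genes past 2-fold, with the share of all tested genes beside them as background. At those shares, lists of 2 to 26 tested genes would hold few or none, so a count of 0 sets no list apart.

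**Figure D4:**
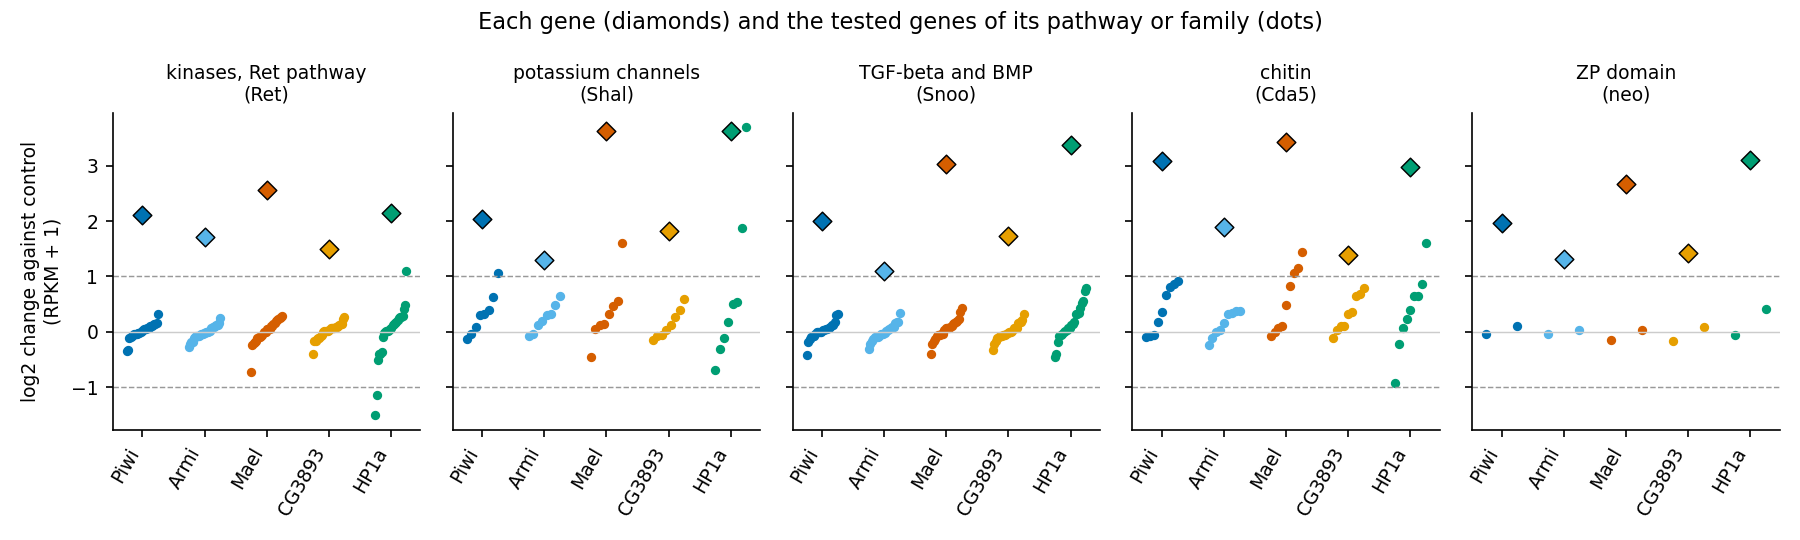
Log2 change against control of each of the 5 genes (diamonds) and of the tested genes of its pathway or family (dots), by knock-down, with dashed lines at the 2-fold limits. Apart from KCNQ in HP1a, at 3.69 against 3.63 for Shal, every listed gene lies below the diamond of its panel in every knock-down.

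For Ret, 26 of the listed receptor tyrosine kinases and signalling partners were tested. None was past 2-fold in Piwi, Armi, Mael or CG3893 (backgrounds 0.377% to 2.42%). In HP1a, 1 was higher (background 3.85%) and 2 were lower (background 1.9%). The list's median log2 change lay between -0.02 and 0.06, where that of all tested genes lay between -0.08 and -0.02. The ligand gene mav, a TGF-beta family member that acts on Ret in fly neurons, was at 12.1 RPKM in the control and at 8.94 to 14.4 in the knock-downs. The adaptor gene drk and the Ras gene Ras85D stood at 69.2 to 82.5 and 79.9 to 94.9 RPKM over the 6 libraries. In HP1a, the kinase gene Cad96Ca was at 14.0 against 6.02 RPKM, while Pvr, the receptor for PDGF- and VEGF-like ligands, was at 6.63 against 20.7 RPKM and sev, the receptor of the R7 photoreceptor, at 36.2 against 80.6 RPKM.

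For Shal, 8 of 19 listed potassium channel genes were tested. Past 2-fold higher were 1 in Piwi (background 1.56%), 1 in Mael (2.42%) and 2 in HP1a (3.85%). In Armi (0.975%) and CG3893 (1.01%) it was 0, and 0 were lower in any knock-down (backgrounds 0.377% to 1.9%). The ether-a-go-go-like gene Elk was at 0.078 RPKM in the control cells, while HP1a had 2.95, Mael 2.29, Piwi 1.26, Armi 0.68 and CG3893 0.63. HP1a and Mael were its highest libraries too, but it passed the limit in Piwi, Mael and HP1a and not in Armi or CG3893, at 0.64 and 0.59. Elk reached the mean of 1 RPKM only through the knock-downs where it was high, so none of its calls carries weight. They are the list's only ones in Piwi and Mael, and in HP1a KCNQ is the other. KCNQ, an M-type channel gene, was at 1.93 RPKM in the control, 2.87 to 3.53 in the piRNA-factor knock-downs and 36.8 in HP1a. SKIP, which encodes a protein that interacts with Shal, was at 14.6 to 17.4 RPKM in all 6 libraries. The related channel genes Sh, Shab and Shawl had means under 1 RPKM and Shaw was at 2.87 RPKM in the control and at most 4.47, in HP1a.

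For Snoo, 22 of 33 listed TGF-beta and BMP genes were tested. In either direction and any knock-down, 0 passed the limit (backgrounds 0.377% to 3.85%). The Smad genes Mad, Med and Smox stood at 44.7 to 52.6, 29.0 to 33.4 and 38.8 to 41.5 RPKM over the 6 libraries. The BMP target and inhibitor gene Dad was at 12.2 RPKM in the control and at 11.7 to 13.9 in the knock-downs. The other Ski family gene, fuss (CG11093 in the tables), was at 1.56 RPKM in the control, 2.44 in Mael and 2.77 in HP1a. The largest change in the list was 0.79, for the BMP-binding gene cv-2 in HP1a, at 38.5 against 21.9 RPKM.

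For Cda5, 9 of 25 listed chitin-related genes were tested. Of these, 3 were past 2-fold higher in Mael (background 2.42%) and 1 in HP1a (3.85%). In Piwi (1.56%), Armi (0.975%) and CG3893 (1.01%) it was 0, and 0 were lower in any knock-down (backgrounds 0.377% to 1.9%). All 3 in Mael were imaginal disc growth factor genes, which encode secreted chitinase-like proteins and not chitin-modifying enzymes. Idgf3 stood at 8.62 RPKM without knock-down, against 28.2 in HP1a, 25.1 in Mael, 16.5 in Piwi, 15.7 in CG3893 and 11.2 in Armi. Idgf4 went from 14.6 to 33.9 RPKM in Mael and Idgf2 from 34.0 to 71.7 RPKM. The list's median log2 change was 0.48 in Mael, 0.39 in HP1a, 0.37 in Piwi, 0.33 in CG3893 and 0.17 in Armi. The chitin deacetylase genes Cda4, Cda9, serp and verm, and the chitin synthase genes kkv and Chs2, had means under 1 RPKM.

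For neo, 2 of 11 listed ZP domain genes were tested, and neither passed the limit in any knock-down (backgrounds 0.377% to 3.85%). The gene tyn was at 3.70 to 4.26 RPKM over the 6 libraries, and qsm (under an older name in the tables) at 4.41 RPKM in the control and 6.21 in HP1a. The other 9, among them nyo and mey, the relatives of neo in the same family, were under 0.92 RPKM in every library.

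Ret and Shal are known from neurons, so neuron markers were read in the same libraries. The 8 markers summed to between 10.5 RPKM, in Armi, and 13.2 RPKM, in HP1a, nearly all of it from elav, which was at 10.1 RPKM in the control, 9.81 in Armi, 11.7 in Mael and 12.4 in HP1a. The other 7, nSyb, Syt1, brp, para, ChAT, VGlut and Gad1, were at no more than 0.45 RPKM in any library, and Syt1, VGlut and Gad1 were listed at 0 in some.

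Patterns were compared by the root mean square difference of the 5 log2 changes, where smaller means more alike. These changes share the control library, so the measure is a description. Snoo and neo were the nearest to each other of all genes, with a difference of 0.26, and Snoo and Shal were 0.31 apart. Shal was nearest to CG11866, at 0.18, which stood at 0.67 RPKM in the control cells, while HP1a had 18.6, Mael 17.8, Piwi 6.77, CG3893 5.71 and Armi 3.94. Ret was nearest to CG15314, at 0.24, CHKov1, at 0.29, and CG32816, at 0.30. Cda5 was the least matched: its nearest genes, CG34411, CG32944 and CG30076, were 0.42, 0.44 and 0.55 away. For neo, CG32944 followed at 0.28 and the small heat shock gene Hsp67Bb at 0.31. For Shal the third was CG34411, at 0.40, and for Snoo CG30076, at 0.32.

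**Figure D5:**
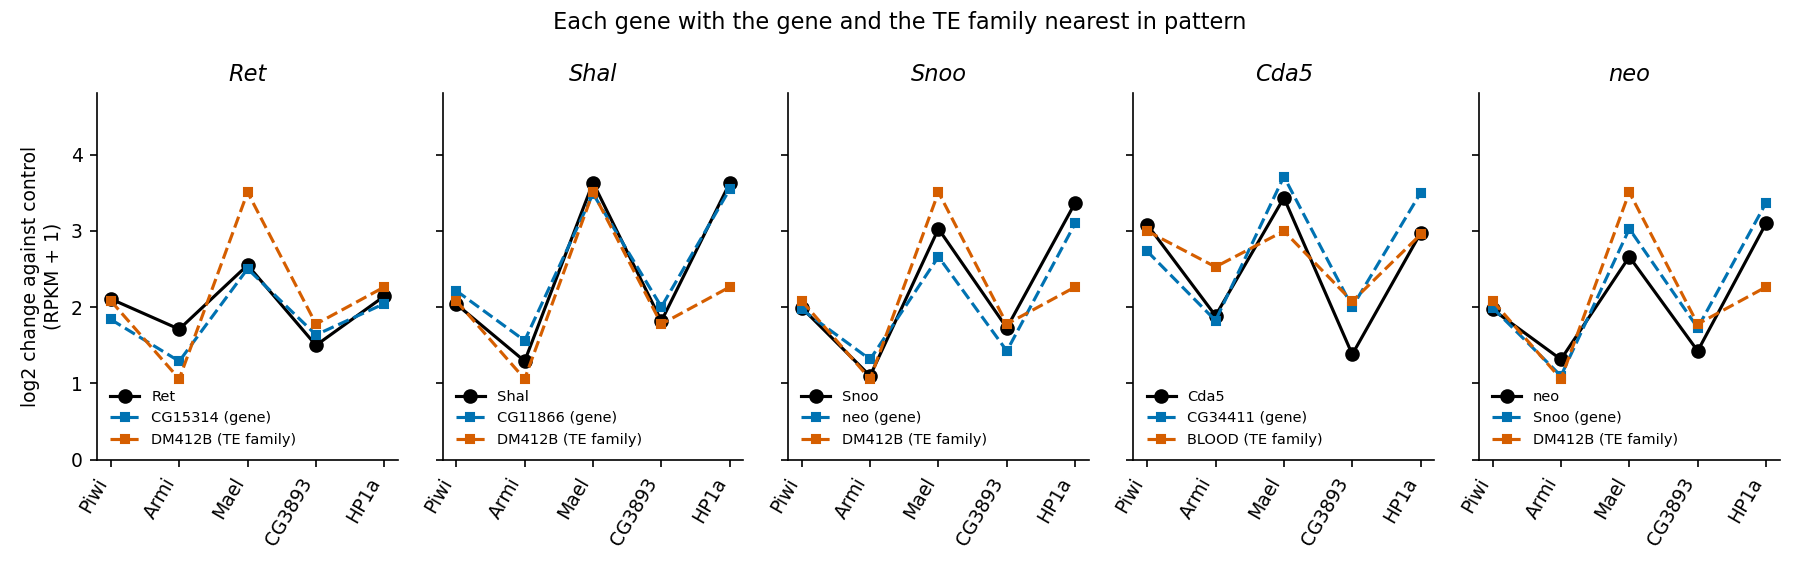
Log2 change against control in the 5 knock-downs for each of the 5 genes (black), the gene nearest in pattern (blue) and the TE family nearest in pattern (orange). Lines join libraries to guide the eye. The nearest TE family is DM412B for Ret, Shal, Snoo and neo, where it lies above Ret, Snoo and neo in Mael, and BLOOD for Cda5.

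Among the 119 TE families averaging 1 RPKM or more, the LTR retrotransposon entry DM412B was nearest to 4 of the 5 genes, at 0.53 for Ret, 0.54 for Snoo, 0.57 for neo and 0.62 for Shal. It stood at 4.19 RPKM without knock-down, against 57.9 in Mael, 23.9 in HP1a, 21.0 in Piwi, 16.8 in CG3893 and 9.81 in Armi. Its HP1a level was well below its Mael level, while for the 5 genes, as for most tested genes, the HP1a and Mael levels differed by less than 2-fold. Cda5 was nearest to the LTR retrotransposon BLOOD, at 0.47, which stood at 104 RPKM without knock-down, at 840 in both Mael and Piwi, and at 814 in HP1a, 606 in Armi and 443 in CG3893. The second-nearest families were the LINE-type element DOC for Ret (0.57), BLOOD for Shal (0.82), TLD2 for Snoo (0.72), DM412B for Cda5 (0.69) and the DNA transposon TRANSIB2 for neo (0.58).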

How the data were processed

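The authors deposited RPKM per library for 14145 gene entries and 177 TE entries, per the file headers. Cutadapt, TopHat2 2.0.7, Bowtie2 2.0.0, Cufflinks 2.0.2 and build dm3 are named in the submitters' processing notes. For the annotation, the strand setting and multiply mapped reads, the choice is not given in the sources used here. Rows were summed by gene name; 161 entries repeated one. Locus starts are printed 1 higher than in the files, because among 1947 genes on 2L matched by symbol to release 6, 654 start exactly 1 base lower in the files and 670 end at the same base. Nothing else was taken from that release except synonyms.

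Neighbours are genes whose locus lies within 50 kb. Named genes are the 5, the targeted genes, the nearest tested neighbours and those past 2-fold. They include the 3 genes and 2 TE families nearest in pattern, and from each list those with the largest changes. Relatives and partners of the 5 genes, further neighbours, markers and genes at the limit were added after their values were seen. Gfrl, split over several entries, was not counted. Members and lists were chosen with earlier results of these data known.

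Depth came from the whole-read steps of RPKM. Of 89 TE entries above 0 in every library and under 30 RPKM, 58 gave whole reads. The library totals, and with them the reads per kilobase, follow from these as a best fit up to a common multiple. Depth relative to the control differed slightly between gene and TE entries, at 0.543 and 0.549 in HP1a. Of 1641 genes above 0 in every library and under 1 RPKM, 66.1% gave whole reads within 0.001 reads or 0.01% of the number. Changes, neighbours and totals were tested on simulated data. Python 3.11.15, numpy 2.4.6, pandas 2.3.3 and scipy 1.17.1 were used. Alternatives were other pseudocounts, filters and windows, centring, and leaving out the HP1a or CG3893 library.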

Additional observations from a re-analysis of the deposited data

How the results depend on the processing

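Centring on the median gene and a pseudocount of 0.1 RPKM kept all 25 changes of the 5 genes on their side of the limit. A pseudocount of 5 RPKM left 3 of the 5 past it in Piwi, 2 in Armi and 2 in CG3893: Shal was then at 0.95, 0.52 and 0.82, neo at 0.79, 0.45 and 0.51, Snoo at 0.81 in Armi and Cda5 at 0.83 in CG3893. By construction this setting shrinks low genes, and the share of all tested genes past the limit in each knock-down was not computed with it. Genes past 2-fold in all 5 knock-downs numbered 82 with a pseudocount of 0.1, 9 with 5 and 29 as reported. Of 150 recomputed differences between knock-downs, 144 stayed on their side of the limit and 6 dropped under it, all with a pseudocount of 5: Ret and neo between Mael and CG3893, neo between Mael and Armi and between HP1a and Piwi, Snoo between Mael and Piwi, and Cda5 between HP1a and Armi. Among neighbours, a pseudocount of 0.1 gave 1 lower in Piwi; a pseudocount of 5 gave 0 higher in Armi, 1 higher in Mael and 1 lower in HP1a; a mean of at least 5 RPKM gave 1 lower in HP1a. For the other windows the backgrounds given above apply, since the 7690 genes were the same. Within 20 kb, 1 each was higher in Armi, Mael and HP1a and 1 was lower in HP1a, of 36 tested. Within 100 kb, 1 each was higher in Piwi, Armi and CG3893, 3 in Mael and 4 in HP1a, of 119 tested. The genes added there were Oat, 62.7 kb from Shal, and CG31038, 51.3 kb from neo. Oat was at 17.3 RPKM in the control, 156 in Mael, 113 in HP1a, 57.2 in CG3893, 54.9 in Piwi and 30.5 in Armi. CG31038 was at 0.79 and 2.63 RPKM in the control and HP1a. No paired analysis was possible because each group holds 1 library. Depth limits Shal and neo most, which rested on the fewest control reads per kilobase.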
